A study of Bubalus bubalis with 8 samples.

Results

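Buffalo mammary epithelial cells (MECs) harvested 12 h after heat stress were compared with unstressed MECs (CTR) on 1 bovine oligonucleotide array per condition. Both arrays lay on the same slide, so the difference between them was free of a change of slide. A probe entered the comparison when Feature Extraction marked it as well above background for CTR, for 12 h or for both, and when it lay outside a block of rows and columns that was dark on the CTR array. Of 43653 probes, 13557 met these conditions, among them 10912 measured on both arrays, 2472 not well above background in CTR and 173 not well above background at 12 h. These probes represented 7114 of the 15661 gene symbols on the array, of which 5993 had a probe measured on both arrays. Leaving out the dark region removed 1206 probes that were otherwise bright enough.

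The cells were a primary culture from the mammary gland of 1 buffalo, used at passage 10 and grown on collagen. The heat stressed MECs were held at 42 °C for 1 h and then returned to 37 °C for 12 h, whereas CTR remained at 37 °C. Per the study's methods, control plates were harvested alongside the treated ones at each time. The labels do not say which of these harvests the CTR array holds, so the effect of heat and that of a longer time in culture cannot be told apart. The other arrays of the slide held MECs at 8 h and 24 h post heat stress, and their values are given as context. With 1 array per condition no spread between cultures was measured, no test was possible and every value below describes these arrays alone.

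Levels are given as log2 of the background-corrected Cy3 signal minus the 75th percentile of the same array, and changes as the 12 h level minus the CTR level. The 12 h array was the brightest of the slide, with a 75th percentile of 423 signal units against 212 in CTR, and 33.4% of its probes were well above background against 26.5%. Probes spotted several times on an array gave a median SD between spots of 0.14 log2 in CTR (11 probes) and 0.23 at 12 h (20 probes), which combine to 0.27 for a change. This covers the error of a spot only. A probe that was not well above background on one of the arrays was set there at the higher of its own level and the lowest level called well above background on that array, -0.20 in CTR and -1.04 at 12 h, and the fold is then written as "at least".

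Heat unfolds cellular proteins, and released heat shock factor 1 drives the transcription of chaperones that hold, refold or pass on the damaged proteins. The inducible HSP70, the small heat shock proteins and their co-chaperones belong to this response, whereas the constitutive HSC70 (HSPA8) and the HSP90 machine also serve cells at normal temperature. Proteins beyond repair are tagged with ubiquitin and sent to the proteasome or to autophagy. Proliferating cells pause their cycle under heat, and mammary epithelium is a tissue whose milk output drops in hot seasons.

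The probes on which most of the comparison turns are shown by the first 30 of their 60 bases, since these bovine sequences decide what buffalo RNA was captured. Both CRYAB probes and probes of HSPB8, HSPA1A and ZFAND2A stand for the higher genes, with an HSPA1A probe measured on both arrays beside one not well above background in CTR. HSPA8 is set against the inducible HSP70, and the RRM2 and CCNA2 probes carry lower values. No base is marked by capitals.
CRYAB A_73_101765: taaacgcattttttaaaacaagaaaagttc
CRYAB A_73_P039441: agatgtgattgaggtgcatggcaaacatga
HSPB8 A_73_113698: ctagtggtgttgtgtatatgggtgggacgt
HSPA1A A_73_104629: gccaatggcatcctgaacgtcacggccacg
HSPA1A A_73_P474283: tcaacgacggagacaagcctaaggtgcagg
ZFAND2A A_73_P043891: aatgtccaaactgaggctctgtagagctgg
HSPA8 A_73_P341276: gtgcacatggaaaaacattgcactttacaa
RRM2 A_73_P082991: aatacggatattgagtactgcacaagtgtt
CCNA2 A_73_P052251: ctcaacccaccagagacactaaatgtgtaa

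The array files place the whole 60-base probes on the bovine build Btau_3.1. The CRYAB probes lie at chr15:20478813-20478872 and chr15:20479069-20480618 on the minus strand, the ends of the latter 1550 bases apart in the genome. The HSPB8 probe lies at chr17:59096092-59096151 (minus), the HSPA1A probes at chr23:27311987-27312046 and chr23:27313147-27313206 (both minus), ZFAND2A at chr25:43584137-43584196 (plus) and HSPA8 at chr15:32348180-32348239 (minus). RRM2 lies at chr11:90263212-90263271 (minus) and CCNA2 at chr6:3386872-3386931 (plus). Exons and untranslated regions were not looked up here, since no annotation of that build was used.

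Few probes differed strongly between heat stressed MECs at 12 h and CTR. A 3-fold higher signal at 12 h was found for 14 probes (0.103% of 13557) and a 3-fold lower one for 62 (0.457%), while 119 (0.878%) were 2-fold higher and 746 (5.5%) 2-fold lower. At the level of genes, taking the median over the probes measured on both arrays, 9 were 3-fold higher (0.127% of 7114) and 29 were 3-fold lower (0.408%), and at 2-fold the counts were 54 (0.759%) and 319 (4.48%). The 9 genes were CRYAB, HSPA1A, HSPB8, ZFAND2A, SAT1, BARX2, TRAK1, SYTL1 and PLEKHA8. Of these, 6 rested on a bound because CTR was not well above background. In a bulk culture, fewer cells of a type and less RNA per cell cannot be told apart.

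The excess of lower genes changed with the scaling, although quantile normalization kept it, with 11 genes 3-fold higher and 27 lower. The median change of the 5993 genes measured on both arrays was -0.27, with 90% of genes between -0.99 and 0.52. With this median set to 0, 21 genes were 3-fold higher and 10 were 3-fold lower, and 160 and 94 passed 2-fold. Among the 10 genes were FAM64A, MFSD2A, CHODL, CCNA2, RRM2, NUF2, SLC7A5, DCTD and PAPD7. Medians of gene lists are therefore given relative to -0.27. On the same scale the medians of all genes were -0.16 at 8 h and -0.17 at 24 h, and 12 h was the lowest of the 4 arrays for 1985 genes (33.1%) and the highest for 489 (8.16%). Just inside and just outside the 3-fold threshold lay PLEKHA8 (at least 3.14-fold) and CELF1 (2.90-fold) among higher genes, and METTL21A (3.02-fold) and WBSCR16 (at least 3.00-fold) among lower ones.

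The change also varied with the position of a probe within the array. The local median change, taken over probes within 10 rows and columns, ran from -0.84 to 0.91 with a median of -0.32. Close to the dark region, within 20 rows and 10 columns, its median was 0.26 against -0.35 elsewhere, and 1484 of the 13557 probes compared lay there, with 7 of the 14 that were 3-fold higher and 0 of the 62 that were 3-fold lower. BARX2, TRAK1 and SYTL1 were among them, with local medians of 0.74, 0.72 and 0.83. When the local median was subtracted from each probe, 7 genes were 3-fold higher and 4 were 3-fold lower, and 55 and 92 passed 2-fold. CRYAB, ZFAND2A, HSPB8, HSPA1A and SAT1 stayed among the higher genes, and RRM2, FAM64A and CCNA2 were among the lower ones.

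The small heat shock proteins, which hold unfolded proteins without ATP, included the gene with the largest change of all. CRYAB, the αB-crystallin chaperone, gave levels of -0.64 in CTR (not well above background), 5.67 at 8 h, 5.60 at 12 h and 4.01 at 24 h with probe A_73_101765. Its other probe gave -1.57 (not well above background), 4.86, 4.91 and 2.81 in the same order. CRYAB at 12 h was thus at the level of 8 h, still at least 55.4-fold higher than CTR by the former probe and at least 34.4-fold by the latter, and its 24 h level also lay above CTR with both probes. Over the alternative ways of processing the change of CRYAB ran from 5.28 to 6.48 log2.

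HSPB8, which works with the co-chaperone BAG3 to direct misfolded proteins to autophagy, gave -1.52 in CTR (not well above background), 4.63 at 8 h, 2.06 at 12 h and 0.20 (not well above background) at 24 h. HSPB8 was at least 4.78-fold higher than CTR at 12 h, below its 8 h level, and its change ran from 1.66 to 2.64 over the alternatives. Its other probe, A_73_P324666, was faint at 12 h (-0.85) and allows no fold. BAG3 gave changes of 0.68, 0.98 and -0.76 with its 3 probes, so that the probes differed in direction. The brightest of them read 3.76 in CTR, 6.39 at 8 h, 4.43 at 12 h and 3.36 at 24 h.

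HSPB1, the widely expressed HSP27, read 6.59 in CTR and 7.75, 7.25 and 7.54 at 8, 12 and 24 h. The 12 h spot was saturated, so its change of 0.66 is a lower bound and its order among the heat stressed arrays cannot be read. HSPB6, a relative found mainly in muscle, gave 1.20 in CTR and 1.27 at 12 h, a change of 0.07. This is within the spot error, but lies above the median of all genes of -0.27. The other genes of the list of 11 had no member probe.

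Among the ATP-driven HSP70 chaperones, the inducible HSPA1A was above CTR at 12 h and the constitutive cytosolic HSPA8 was below it. HSPA1A, the main inducible HSP70, read 2.67 in CTR, 7.71 at 8 h, 5.07 at 12 h and 1.85 at 24 h with probe A_73_104629. The other probes measured on both arrays read 0.80, 5.26, 2.30 and -0.85 (not well above background) and 2.47, 7.03, 5.41 and 1.05 in the same order, which are changes of 1.50 and 2.95. Probe A_73_P474283, not well above background in CTR, gave at least 1.87. All 4 probes of HSPA1A were thus higher at 12 h than in CTR and lower than at 8 h, and the median over those measured on both arrays was 5.27-fold over CTR. These probes may also capture a near-identical HSP70 copy, and no probe on the array is named HSPA1B.

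HSPA8, the constitutive HSC70, was lower than CTR with each of its 4 probes, by changes of -1.17, -1.08, -1.64 and -0.65 and a median of -1.12. Over the alternatives the change of HSPA8 ran from -1.64 to -0.63. The probe A_73_P341276 read 5.60 in CTR, 6.43 at 8 h, 3.95 at 12 h and 2.27 at 24 h, so HSPA8 was above CTR at 8 h and below it at 12 h and 24 h. The same order held for its other probes, which read 4.89, 5.55, 3.72 and 3.21, then 2.40, 3.02, 1.32 and 0.43, and then 2.53, 3.66, 1.88 and 0.46. HSPA6, a strictly stress-induced relative, was not well above background in CTR (-2.51), reached 3.65 at 8 h and stood at 0.33 at 12 h, a bound of 0.53. HSPH1, an HSP110 that recharges HSP70, read 1.55, 4.43, 2.53 and 1.53 in CTR and at 8, 12 and 24 h, a change of 0.98.

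The organelle members HSPA5 (the endoplasmic reticulum chaperone BiP) and HSPA9 (mitochondrial mortalin) had changes of 0.23 and 0.33. These are about the size of the spot error, but lie above the median of all genes of -0.27. HSPA4, HSPA14 and HSPBP1 gave -0.30, -0.36 and -0.49, the first of these close to that median. HSPA2 and HSPA12A gave -0.99 and -1.24. After subtraction of the local median HSPA12A came to -0.56. No gene of the list, HSPA8 included, was then 2-fold lower, and 3 were 2-fold higher. Over the 10 genes of the list measured on both arrays the median relative to all genes was -0.06, a value whose sign turned under 3 alternatives, and 9 of the 10 were lower at 12 h than at 8 h against 63.5% of all genes.

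The HSP90 and HSP60 machinery, which folds signalling proteins and mitochondrial proteins, lay slightly above the median of all genes. The median of its 17 genes relative to all genes was 0.36 (0.28 to 0.64 over the alternatives), 14 of the 17 lay above the median of all genes, and no gene passed 2-fold. HSP90AA1, the stress-responsive cytosolic HSP90, had the highest change of the list with 0.91. Its probe A_73_P449761 read 3.60 in CTR, 5.52 at 8 h, 4.77 at 12 h and 3.26 at 24 h. Its 6 probes gave changes of 0.15 to 1.59, all above 0, and the highest of these, A_73_P311796, lay close to the dark region where the local median was 0.65. HSP90AB1, the constitutive form, gave 0.27, with 0.07 to 0.57 over its 4 probes. PPID (a cyclophilin partner of HSP90), BAG2, AHSA1 (an activator of the HSP90 ATPase), PTGES3 and STIP1 (which links HSP70 to HSP90) gave 0.69, 0.45, 0.34, 0.29 and 0.25. HSPE1 and HSPD1, the mitochondrial chaperonin pair, gave 0.09 and -0.17. FKBP5 and CDC37 were at -0.57 and -0.56. Of the 17 genes, 9 stood in the order 8 h above 12 h above CTR, against 808 of 5993 genes (13.5%) overall.

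The J-domain co-chaperones, which deliver substrates to HSP70, and the TRiC chaperonin, which folds actin and tubulin, were close to the median of all genes, at 0.03 (21 genes) and 0.13 (8 genes). The highest J-domain value, DNAJC21 at 1.18, lay near the dark region and came to 0.37 after subtraction of the local median. DNAJB1, the HSP40 of the heat shock response, read 4.02 in CTR, 5.81 at 8 h, 3.92 at 12 h and 3.38 at 24 h, a change of -0.17. The 25 endoplasmic reticulum chaperone and unfolded protein response genes had a relative median of -0.08, which turned to 0.33 with no filter on dim probes, and no gene passed 3-fold. The transcription factors of this response, ATF4 and XBP1, gave the lowest values of the list, -1.13 and -1.04. All 3 probes of ATF4 (-1.27 to -0.98) and all 3 of XBP1 (-1.17 to -0.95) were below CTR at 12 h. After subtraction of the local median ATF4 came to -0.57, and no gene of this list was 2-fold lower.

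ZFAND2A, an arsenite- and heat-inducible protein that associates with the proteasome, had the largest higher value outside the chaperones among genes measured on both arrays. It read 0.56 in CTR, 4.75 at 8 h, 2.75 at 12 h and 0.17 (not well above background) at 24 h, so that ZFAND2A was 4.56-fold higher than CTR at 12 h and lay between the 8 h and 24 h levels. Its change ran from 2.19 to 2.79 over the alternatives. CACYBP, which takes part in ubiquitination with SIAH1 and also binds HSP90, read 3.62, 5.72, 4.92 and 2.94 in CTR and at 8, 12 and 24 h. It gave a change of 1.30, and was named after its values were seen.

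The 20 ubiquitin and autophagy genes had a relative median of 0.32 (0.13 to 0.70 over the alternatives), and 16 of the 20 lay above the median of all genes. MAP1LC3B, the autophagosome protein LC3, read 1.99 in CTR and 2.83 at 12 h, a change of 0.84. UBB, a stress-inducible polyubiquitin gene, was on the opposite side with -1.50 and had 3 probes below CTR (-1.51 to -0.99). It is made of ubiquitin repeats, so its probes could also capture other transcripts with such repeats. The 29 proteasome subunits had a relative median of -0.04, whose sign turned under 4 alternatives, and changes from -0.74 to 0.46.

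SAT1, the acetyltransferase that starts the breakdown of spermidine and spermine, read 1.87 in CTR, 3.96 at 8 h, 3.69 at 12 h and 1.78 at 24 h. It was 3.52-fold higher than CTR at 12 h, and at 24 h it was back at the level of CTR. Its change was 2.11 after subtraction of the local median but 0.49 when probes not well above background on either array were also taken into its median.

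The stress-responsive transcription factors FOSL2 and ATF3 were among the 10 highest changes of genes measured on both arrays, both under 3-fold. FOSL2, an AP-1 subunit, read 0.35, 2.16, 1.84 and 1.04 in CTR and at 8, 12 and 24 h, a change of 1.49. ATF3, which is induced by many stresses, read 1.34, 3.15, 2.72 and 2.17, a change of 1.38. The 23 immediate early genes as a list had a relative median of 0.18, which turned to -0.06 with the brightest probe of each gene, and its members went both ways. DUSP6, a feedback phosphatase of ERK, gave the lowest change of the list, -1.50. FOS gave -0.89 from probes at -1.49 and -0.28.

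The p53 target genes had a relative median of 0.18 over 10 genes, with 5 above and 5 below the median of all genes. TP53INP1, a p53-induced stress protein, read 3.47 in CTR, 4.71 at 8 h, 4.56 at 12 h and 4.27 at 24 h, a change of 1.09. MDM2, the ubiquitin ligase of p53, gave 0.93 and CDKN1A, the p21 cell cycle inhibitor, 0.40.

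Genes of cell division were lower in heat stressed MECs at 12 h. Over the 28 cell cycle and DNA replication genes measured on both arrays the relative median was -0.63 (-0.72 to -0.16 over the alternatives), and 27 of the 28 lay below the median of all genes. The -0.16 came with no filter on dim probes. Of the 32 genes of the list with a member probe, bounds included, 5 were 3-fold and 12 were 2-fold lower, against 0.408% and 4.48% of all genes. After subtraction of the local median 26 of the 28 lay below the median of all genes, and 2 of the 32 were 3-fold and 7 were 2-fold lower. The level at 12 h was below both CTR and 8 h for 24 of the 28 genes, against 2995 of all 5993 genes. The 12 h level was the lowest of the 4 arrays for 17 of the 28, against 33.1% of all genes. Relative to all genes the median of the list was -0.49 at 8 h and -0.64 at 24 h, so the list was about as low at 24 h as at 12 h.

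CCNA2, the cyclin of S phase and mitotic entry, read 2.04 in CTR, 0.33 at 8 h, -0.01 at 12 h and 0.78 at 24 h. CCNA2 was 4.14-fold lower at 12 h than in CTR. Its other probe, not well above background at 12 h, gave a change of -1.84 or lower. RRM2, the ribonucleotide reductase subunit that supplies DNA precursors, read 1.50, -0.04, -0.49 and -0.32 (not well above background) and was 3.96-fold lower, with -2.44, -1.98 and -1.67 from its 3 probes. All probes of both genes were thus below CTR by more than 1.5 log2.

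PLK1, a kinase of mitosis, read 4.18, 2.97, 2.41 and 3.30 in CTR and at 8, 12 and 24 h, a change of -1.76. BUB1B, a kinase of the spindle checkpoint, read 1.52, -0.02, -0.18 and 0.68, a change of -1.70. The spindle assembly factor TPX2, named after its values were seen, gave -1.62 and completes the 5 genes of the list that passed 3-fold. Among the genes past 2-fold, PCNA (the sliding clamp of DNA polymerase), CKS2 (a subunit of cyclin-dependent kinases) and PRC1 (a protein of the midzone of the spindle) gave -1.35, -1.30 and -1.27, and were likewise named after their values were seen. CDC25B, the phosphatase that starts mitosis, was the single gene of the list above the median of all genes, at 0.11.

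Further genes of mitosis that were not on the list stood among the lowest changes. FAM64A, a nuclear protein of dividing cells, read 1.65 in CTR, 0.48 at 8 h, -0.57 at 12 h and 0.31 at 24 h. Its change was the lowest of the genes measured on both arrays, 4.65-fold. NUF2, a part of the kinetochore, read 1.82, 1.10, -0.12 and 0.40, a change of -1.94. CENPN, a centromere protein, and DCTD, the deaminase that provides a precursor of thymidylate, were not well above background at 12 h and gave bounds of at least 3.19-fold and 3.70-fold lower. After subtraction of the local median FAM64A was at -1.75, still past 3-fold, whereas NUF2, DCTD and CENPN came to -1.24, -1.18 and -1.01.

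The 17 genes of cholesterol synthesis and uptake had a relative median of -0.25 (-0.40 to -0.06). Levels were higher at 24 h than at 12 h for 15 of the 17, against 58.9% of all genes. CYP51A1, the lanosterol demethylase, went the other way, from 0.76 to 2.04 and from 1.73 to 2.84 with its 2 probes, a median change of 1.20.

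MFSD2A and AGPAT9 were also among the lowest changes. MFSD2A, a transporter of lysophosphatidylcholine, read 1.72 in CTR, 0.15 at 8 h, -0.37 at 12 h and 0.74 at 24 h. MFSD2A was thus 4.26-fold lower at 12 h. AGPAT9, an acyltransferase of triglyceride synthesis, read 0.81, -0.10, -1.02 and -0.58 (not well above background at 24 h), a change of -1.82. The 7 genes of milk fat synthesis measured on both arrays had a relative median of -0.02. Of the milk proteins, CSN2 (β-casein) alone was well above background, at 2.22 in CTR and 2.04 at 12 h with probe A_73_116854. Its other probes outside the dark region (A_73_P045606, A_73_P102986 and A_73_P311621) were faint, at -2.51 in CTR and -3.04 or lower at 12 h. The CSN2 signal there thus rests on A_73_116854 alone.

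SLC7A5, the carrier of large neutral amino acids, read 3.76 in CTR, 3.06 at 8 h, 1.86 at 12 h and 2.82 at 24 h, a change of -1.90. The 14 ATF4 target and amino acid genes had a relative median of 0.22, which was 0.01 after subtraction of the local median, and SLC7A5 was the only gene of the list past 2-fold. PAPD7, a noncanonical poly(A) polymerase, gave -1.86.

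Several lists of matrix and cell shape genes lay below the median of all genes. The 11 collagens did so only slightly, with a relative median of -0.11, 7 genes below and 4 above. The relative medians were -0.34 for 16 matrix glycoproteins and proteoglycans (-0.39 to -0.16 over the alternatives; 13 below the median of all genes), -0.33 for 14 IGF binding proteins and growth factors (12 below) and -0.35 for 14 contractile and cytoskeletal genes (13 below; 0.01 with no filter on dim probes). For the matrix glycoproteins the -0.16 came with no filter on dim probes. The laminin chains LAMB1 and LAMC1 gave -1.15 and -1.05. After subtraction of the local median LAMC1 came to -0.51, and no gene of the matrix glycoprotein list was 2-fold lower. TGFB3 gave -1.36 and NRG1, a growth factor of mammary epithelium, a bound of -1.50. LMOD1, a nucleator of actin filaments, was at least 3.11-fold lower, and came to -1.12 after subtraction of the local median. ACTA2, smooth muscle actin, read 7.41 in CTR and 6.61, 6.11 and 6.11 at 8, 12 and 24 h, and was named after its values were seen.

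PLAU, the urokinase that activates plasmin, read 4.18 in CTR, 1.80 at 8 h, 2.37 at 12 h and 3.67 at 24 h. Its 2 probes gave changes of -1.93 and -1.67, and the gene was less far below CTR at 12 h than at 8 h. The 10 matrix proteases and inhibitors had a relative median of -0.32, and -0.16 without saturated probes. CCL2, a chemokine that attracts monocytes, likewise read 2.31, -0.30, 0.69 and 2.02 in CTR and at 8, 12 and 24 h, a change of -1.62. NFKBIA, the inhibitor of NF-κB, was below CTR with all 4 probes, -1.39 to -0.98.

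The cytosolic ribosomal proteins were the list most exposed to the limits of the scanner. All 75 genes were lower at 12 h than in CTR, with a relative median of -0.33, and 68 of the 75 lay below the median of all genes. However, 78 of their 226 probes were saturated at 12 h and 40 were saturated on both arrays. Over the whole array, the 84 probes saturated on both had changes between -1.03 and -0.90, which the scaling sets and which allow no fold. Without saturated probes 62 genes were left with a relative median of -0.18. Quantile normalization turned the median of the list to 0.10, so no direction can be given for the ribosomal proteins. The 66 mitochondrial ribosomal proteins had a relative median of 0.02.

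Lists of cell upkeep stayed near the median of all genes. The relative medians were -0.09 for 67 oxidative phosphorylation subunits, 0.07 for 35 translation initiation factors, -0.17 for 18 glycolysis genes, -0.11 for 21 antioxidant genes and -0.04 for 15 genes of the BCL2 family and caspases. None of these genes passed 3-fold. The signs of all 5 medians turned under at least 1 alternative.

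Among higher genes outside these lists, the bounded values of BARX2 (a homeobox factor), TRAK1 (an adaptor of mitochondrial transport), SYTL1 (a Rab27 effector) and PLEKHA8 (a glycolipid carrier of the Golgi) were at least 4.39-fold, 3.99-fold, 3.16-fold and 3.14-fold. Subtraction of the local median brought them to 1.39, 1.27, 0.83 and 1.50 log2, each below 3-fold. TRAK1 came to -0.08 with no filter on dim probes. CELF1, an RNA-binding protein, gave 1.54 and came to 0.89 after subtraction of the local median. ATP13A2 (a lysosomal ATPase) and ARPP21 gave 1.51 and 1.45 at local medians of 0.91 and 0.64, and came to 0.56 and -0.84 with no filter on dim probes. The -0.84 is the distance between the values given to faint probes on the arrays, and not a measured change. SLC12A4, a potassium chloride cotransporter, read 0.07, 0.89, 1.49 and 1.36 in CTR and at 8, 12 and 24 h, and thus was higher at 12 h than at 8 h. The sorting nexin SNX11 gave 1.40. CHODL, a membrane lectin, was not well above background at 12 h and was at least 4.21-fold lower.

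The label of the cells was checked against marker genes. Of 10 epithelial markers, 9 had a probe well above background on both arrays, but KRT18, the cytokeratin the study stained for, did not on either array. Of 10 fibroblast markers, 4 had a probe well above background on both arrays, namely vimentin (VIM), COL1A1, COL3A1 and DCN. Every VIM probe was well above background, but most probes of COL1A1, COL3A1 and DCN were not. COL1A2, FAP, LUM, PDGFRA, PDGFRB and THY1 had no such probe on either array. The 5 endothelial markers had none. Of 8 leukocyte markers, 4 had a probe well above background outside the dark region, 3 of them on both arrays and CD68 at 12 h alone, while CD3E, CD74 and ITGAM had none. The keratins had a relative median of -0.10, whose sign turned under 4 alternatives, with KRT7 at 0.63 and KRT4 at -1.17. Subtraction of the local median brought KRT7 to 0.01 and KRT4 to -0.53. Of the 24 epithelial junction genes, with a relative median of 0.03, CLDN7 was 3-fold lower (-1.62) and CDH1, the E-cadherin of epithelia, gave -1.07. After subtraction of the local median CLDN7 came to -0.88, and no gene of the list was 2-fold lower. The part of cell composition in the changes above was not tested.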

How the data were processed

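Each sample was hybridised to 1 array of the bovine 4x44K format (Cy3, 1 colour). Per the file headers, the authors' spot intensities came out of Feature Extraction 9.5.3.1 with background subtracted and spatial and multiplicative trends removed, after scanning on a GenePix instrument. That software put surrogates in place of values too low to measure (53.6% of probes in CTR, 44.3% at 12 h). A table of log2 values made by the authors in GeneSpring GX 12.6 was deposited as well; it is scaled to each array's 75th percentile and centred on each probe's median over all 8 arrays. Sequences and positions are those of the array files (HGSC Btau 3.1).

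From the deposited intensities, spots of 1 probe were averaged after outlier spots were left out, and the 75th percentile of all noncontrol probes of an array was subtracted from log2 of the signal (Python 3.11.15, pandas 2.3.3). A probe that fell to background on an array keeps only a bound there. Genes were called at 3-fold, and a gene's value was the median over its probes measured on both arrays or, where it had none, its brightest probe as a bound. With 1 array per condition no test was made, and the number of arrays limits the precision. The calling of changes was tested on simulated data that held no position trend and no difference in brightness between the arrays. That test therefore says nothing on the effect of either. The members and the gene lists were chosen with earlier results of these data known. Named were the 10 largest changes measured on both arrays and the 5 largest bounds in each direction, up to 4 genes past 3-fold of each list described (otherwise the 2 largest changes), the heat shock genes, the genes of the study's qPCR and the markers; other genes were named after their values were seen. The alternatives covered the scaling, quantile normalization, normexp background correction (limma 3.58.1), the filters on dim, saturated and outlier spots, the dark region, the local trend, the choice of probe, the fold and the deposited log2 values. The arrays of the other slide were not used here. Some genes that the rule names are not reported here.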

Additional observations from a re-analysis of the deposited data

How the results depend on the processing

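The main counts (14 probes and 9 genes 3-fold higher, 62 probes and 29 genes 3-fold lower) stayed within 1.5 times with quantile normalization, with outlier spots kept and with saturated probes left out, and the gene counts also did with the brightest probe of each gene. At 2-fold they were 119 probes and 54 genes higher, and 746 and 319 lower. Scaling by the median over bright probes gave 32 probes and 19 genes higher, and 23 and 11 lower. The 75th percentile over bright probes gave 37 and 21 higher, and 17 and 9 lower, with a median change of -0.016. Normexp gave 22 probes higher, and 0 probes and 0 genes lower, with a median of 0.047, so that all calls of lower genes were lost while 8 of the 9 higher genes were kept. Probes bright on both arrays alone gave 6 probes and 3 genes higher. With no filter on dim probes the counts were 164 and 36 higher, and 789 and 142 lower, and 27 gene lists lay above the median of all genes. TRAK1 reversed to -0.081. The median was -0.84, and ARPP21, under 3-fold in the main values, also came to -0.84. Most faint marker probes read -2.51 in CTR and -3.36 at 12 h. The -0.84 is the distance between these values and not a measured change. The deposited log2 values gave 160 probes and 81 genes higher, and 110 and 49 lower. Subtracting the local trend left 7 probes and 4 genes lower, with a median of 0. Keeping the dark region gave 345 probes and 120 genes higher. Causes were not tested. No paired analysis was possible because each condition has 1 array. Saturation limits the brightest probes, and the CTR array, at 26.5% of probes well above background, limits what can be said of faint ones.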

Other observations

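Probes of the same gene differed by more than 1 log2 in their change for 204 of the 2195 genes with several probes measured on both arrays. ATP5O, a subunit of ATP synthase, gave -1.76 with probe A_73_108954 and 0.12 with probe A_73_P100166. TNFRSF12A, the receptor of the cytokine TWEAK, gave -1.90 and -0.91. NASP, a histone chaperone of S phase, was below CTR with all 3 probes, at -1.44, -1.84 and -0.51, and NCAM1, a cell adhesion molecule, with both probes measured on both arrays, at -1.91 and -0.90. These genes were named after their values were seen.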
